A study of Homo sapiens with 6 samples.

Results

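The genes described here encode the mitochondrial respiratory chain, the ATP synthase and the factors that assemble them. They were chosen by symbol, as protein-coding genes whose name starts with NDUF, SDH, UQCR or ATP5, or with COX and a digit, together with CYC1 and CYCS. Of 14884 genes with a named array feature, 38 met that rule. The cells were MOLM14, a monocytic leukaemia line in long use, which bears a KMT2A-MLLT3 fusion and an internal tandem duplication of FLT3. In 3 samples they had received an siRNA against ATF4 (siATF4), and in 3 a non-targeting siRNA pool, which the sample names call scrambled (siCTRL), each at 70 nM through an electroporation device. All 6 samples shared that transfection, growth in serum and one cell line, and no untransfected cells enter the comparison. The labels describe replicates 1 to 3 of each siRNA as technical. A p-value here therefore reflects only the scatter of these arrays, which may be technical. ATF4 is the transcription factor of the integrated stress response, a pathway that mitochondrial dysfunction also switches on, and the comparison asks which respiratory transcripts changed in level once ATF4 was targeted.

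The respiratory chain passes electrons from NADH and succinate to oxygen and pumps protons across the inner mitochondrial membrane, and ATP synthase lets the protons back to make ATP. Complexes I and II feed electrons to ubiquinone, complex III (the cytochrome bc1 complex) hands them to cytochrome c, and complex IV (cytochrome c oxidase) reduces oxygen to water. Most subunits are encoded in the nucleus, a core set lies in mitochondrial DNA, and dedicated assembly factors insert copper, heme, flavin and iron-sulfur centres. Many myeloid leukaemia cells are known to rely on this pathway.

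Coverage of the pathway was uneven. In the RefSeq gene table for GRCh38.p14, 111 nuclear protein-coding symbols meet the rule, and the other 73 were not analysed here. All 17 of the complex IV symbols had a named feature. These 17 all bear COX names, and NDUFA4 and NDUFA4L2, which the planned grouping also puts in complex IV, are not among them. Named features were also found for 6 of 11 symbols of complex III with cytochrome c, 3 of 20 for ATP synthase and 12 of 21 assembly factors. For complex I (38 symbols) and complex II (4 symbols) there were 0 measured subunits, although assembly factors of both were measured. The set therefore covers complexes III and IV and assembly far better than NADH dehydrogenase, succinate dehydrogenase or ATP synthase. Mitochondrially encoded subunits (0 of 13 listed) were not analysed here either.

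ATF4 was lower on every siATF4 array. Its log2 level was 7.72, 7.88 and 8.14 on siATF4 replicates 1, 2 and 3, against 8.67, 8.64 and 8.85 on siCTRL replicates 1, 2 and 3, and the difference was -0.80 (SE 0.14). In bulk RNA such as this, fewer cells with a transcript and less of it per cell cannot be told apart. No gene passed limma's test over all 14884 genes at an adjusted p below 0.05, ATF4 included, and 218 had an unadjusted p below 0.05. Array medians over all features lay between 3.88 and 3.96. Of 14 markers listed for monocytic leukaemia 8 were measured, and LYZ, MPO, CD68, FLT3 and SPI1 lay above the upper quartile of features on all arrays. CD14, CSF1R and MEIS1 did not. Of the measured T cell (2), B cell (1) and erythroid (1) markers 0 lay above it on all arrays, and of 3 epithelial markers KRT18 did. The B cell marker, PAX5, lay between 3.76 and 6.05 on siATF4 arrays and between 5.43 and 6.12 on siCTRL arrays. The upper quartiles lay between 5.34 and 5.46.

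None of the 38 genes passed the test. The members called at an adjusted p below 0.05 numbered 0 higher and 0 lower, against 0% of all genes tested. At an unadjusted p below 0.05 there were again 0 members in either direction, where 0.934% of all genes were higher and 0.531% were lower. The lowest unadjusted p among the members was 0.125, for SDHAF4. By mean level 26 members (68.4%) were higher with siATF4 and 12 lower, where 53.8% of all genes were higher. Of the 11915 protein-coding genes, the kind that the rule admits, 55.6% were higher. The members' median log2 difference was 0.055 (siATF4 minus siCTRL, here and throughout), beside 0.012 for all genes and 0.018 for protein-coding ones. The mean over the 38 members was 6.68, 6.55 and 6.56 on siATF4 replicates 1, 2 and 3, and 6.59, 6.48 and 6.57 on siCTRL replicates 1, 2 and 3. The arrays of both groups interleave on that mean, with siATF4 replicate 1 the highest and siCTRL replicate 2 the lowest.

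**Figure D1:**
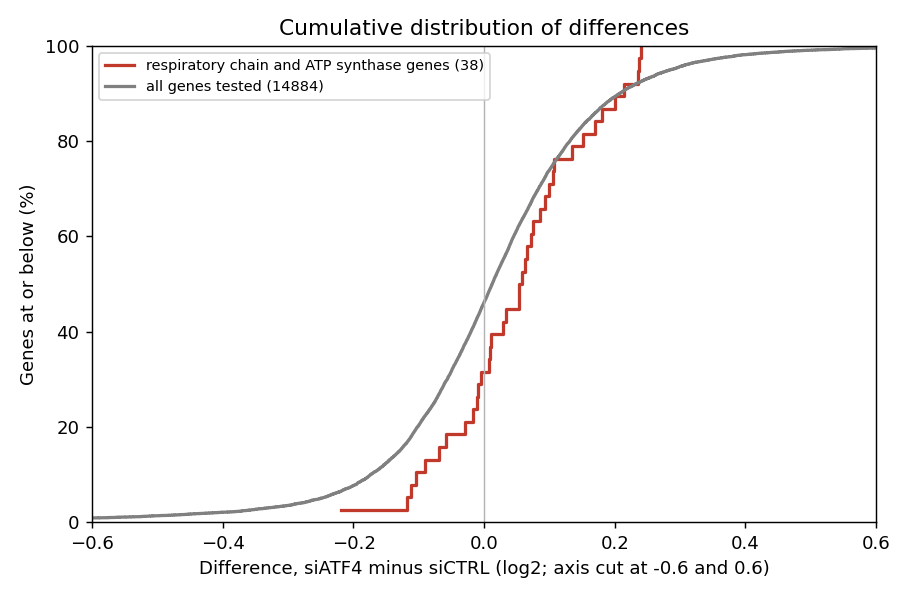
Cumulative percentage of genes (vertical axis) at or below each log2 difference, siATF4 minus siCTRL (horizontal axis, cut at both ends), for the 38 respiratory chain and ATP synthase genes in red and all 14884 genes in grey. The red curve runs from -0.22 to 0.24 and crosses zero at a lower percentage, since 12 of the 38 members were lower with siATF4.

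The intervals show how large the differences could be given the scatter of these arrays alone. Since the labels call the replicates technical, the intervals do not bound differences between independent transfections. Single differences ran from -0.22 (ATP5MK) to 0.24 (COX6A2), and 29 of 38 were smaller than their own standard error. The 95% interval of limma lay within 1.5-fold in both directions for 31 of 38 members and within 2-fold for all 38. Of all 14884 genes 10581 had an interval within 1.5-fold and 13691 within 2-fold. The 7 with an interval reaching past 1.5-fold were UQCRB, COX5B, COX8A, ATP5MK, COX14, COX17 and COX20. The number of arrays, 3 a group, limits the precision.

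**Figure D2:**
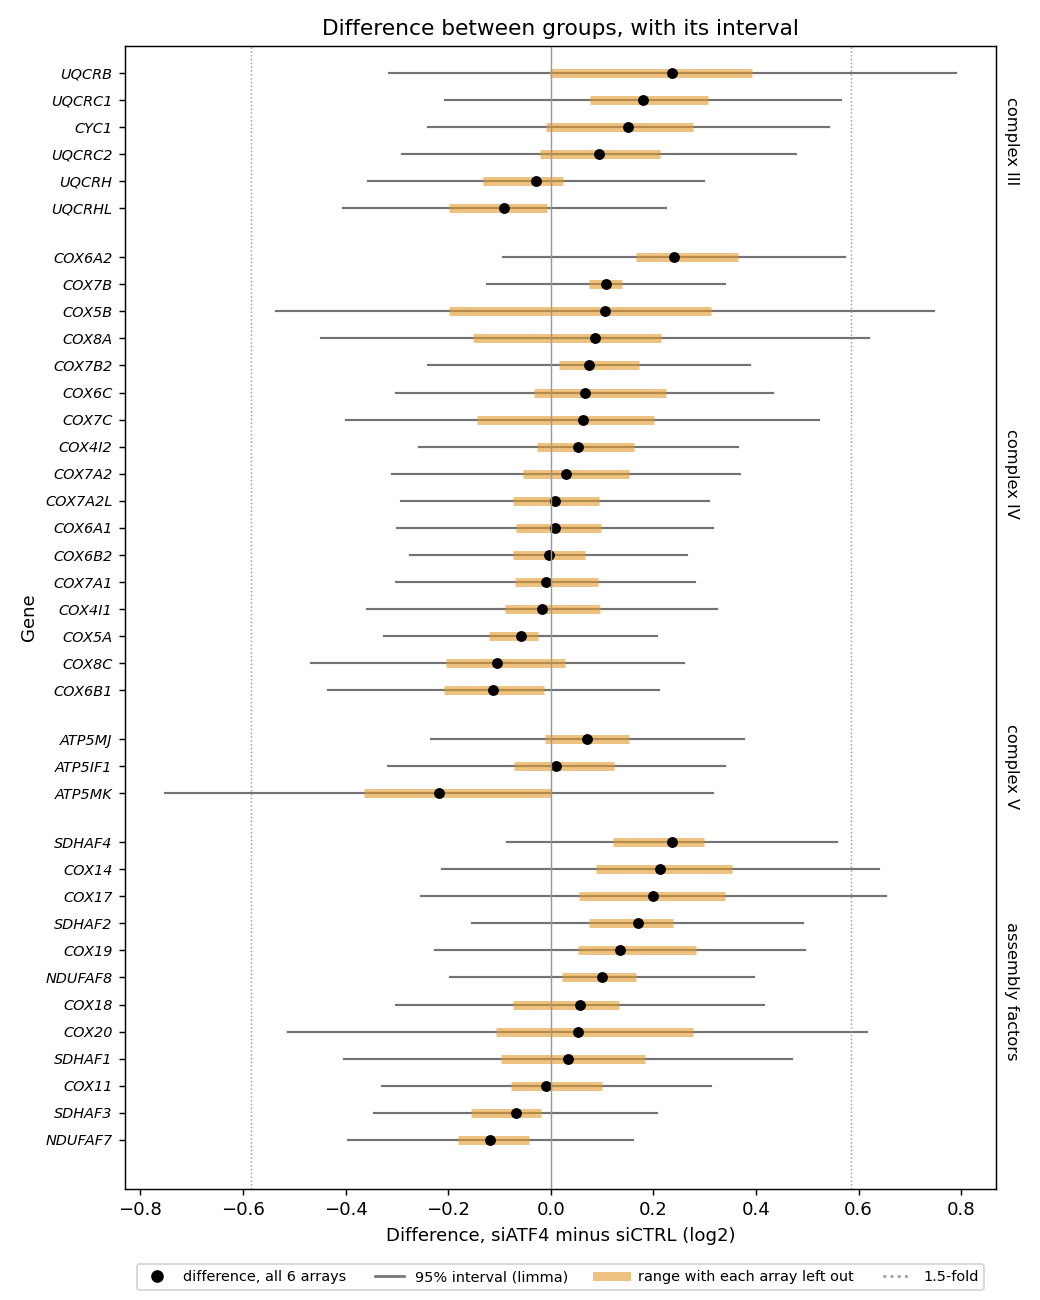
Log2 difference between siATF4 and siCTRL (horizontal axis) for each of the 38 genes (vertical axis, by complex). Points are the difference over all 6 arrays, thin lines its 95% interval from limma, and orange bars the range with each array left out in turn. Every interval spans zero, and the dotted lines mark 1.5-fold.

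The promoters of these genes were read to show what the measured members carry at their start sites. Nuclear respiratory factor 1 (NRF1), the ETS factor GABPA and YY1 are well known regulators of nuclear genes for the respiratory chain, and ATF4 binds a composite element with C/EBP partners. Sequences from 250 bases before to 50 after the annotated start came from RefSeq (GRCh38.p14) and were found for 31 of the 38 members, using the first start listed for the 6 with several. Both strands were searched for GCATGCGC (NRF1 core), CCGGAAG (ETS), AAGATGG (YY1 core) and TGATGNAA (ATF4 with C/EBP), with overlapping matches kept. The NRF1 letters were found in 5 of 31 member promoters (16.1%), against 3.27% of all 27305 genes in the table and 4.26% of its 15842 protein-coding genes. The ETS letters were in 10 of 31 (32.3%), against 10.7% of all genes and 14.2% of the protein-coding ones. The YY1 letters were in 3 of 31 (9.68%), against 6.06% of all genes and 6.40% of the protein-coding ones. The ATF4 letters were in 0 of 31, against 3.67% of all genes and 2.53% of the protein-coding ones, and in 0 of the 39 starts listed for these members. A match is a run of letters and not a shown binding site, and a missing match concerns this window only.

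The promoters that follow are in lower case, with matches in capitals. The first 4 are those that hold both the NRF1 and the ETS letters, and COX18 is the other member with the NRF1 letters. In COX17 and COX18 a pair of NRF1 matches overlaps on opposite strands, and in SDHAF2 the NRF1 match overlaps an ETS match.
COX5B promoter, GRCh38.p14 chr2:97645812-97646111, plus strand: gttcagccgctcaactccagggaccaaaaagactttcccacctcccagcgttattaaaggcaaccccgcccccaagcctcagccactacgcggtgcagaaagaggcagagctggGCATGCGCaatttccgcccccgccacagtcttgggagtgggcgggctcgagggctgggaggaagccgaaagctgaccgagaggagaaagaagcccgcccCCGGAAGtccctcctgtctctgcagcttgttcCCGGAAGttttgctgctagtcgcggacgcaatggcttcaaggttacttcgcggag
COX6A1 promoter, GRCh38.p14 chr12:120437863-120438162, plus strand: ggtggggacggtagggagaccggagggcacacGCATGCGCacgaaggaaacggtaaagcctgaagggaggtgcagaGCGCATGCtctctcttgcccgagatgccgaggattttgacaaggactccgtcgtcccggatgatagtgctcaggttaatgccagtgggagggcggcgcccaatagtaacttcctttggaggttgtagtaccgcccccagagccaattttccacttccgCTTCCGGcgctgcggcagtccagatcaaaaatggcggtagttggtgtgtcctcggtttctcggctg
COX17 promoter, GRCh38.p14 chr3:119677357-119677656, minus strand: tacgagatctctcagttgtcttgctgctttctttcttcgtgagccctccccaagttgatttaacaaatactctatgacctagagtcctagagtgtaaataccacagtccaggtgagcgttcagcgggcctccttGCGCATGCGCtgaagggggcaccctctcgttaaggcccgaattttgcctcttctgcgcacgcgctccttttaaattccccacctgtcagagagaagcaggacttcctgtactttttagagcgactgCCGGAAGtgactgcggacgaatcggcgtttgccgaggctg
SDHAF2 promoter, GRCh38.p14 chr11:61429874-61430173, plus strand: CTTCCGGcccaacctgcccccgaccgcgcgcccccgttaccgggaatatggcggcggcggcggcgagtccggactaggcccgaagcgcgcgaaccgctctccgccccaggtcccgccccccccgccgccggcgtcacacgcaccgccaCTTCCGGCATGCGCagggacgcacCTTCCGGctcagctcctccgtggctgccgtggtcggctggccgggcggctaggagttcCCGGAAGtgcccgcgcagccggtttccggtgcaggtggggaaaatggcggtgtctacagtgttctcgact
COX18 promoter, GRCh38.p14 chr4:73069667-73069966, minus strand: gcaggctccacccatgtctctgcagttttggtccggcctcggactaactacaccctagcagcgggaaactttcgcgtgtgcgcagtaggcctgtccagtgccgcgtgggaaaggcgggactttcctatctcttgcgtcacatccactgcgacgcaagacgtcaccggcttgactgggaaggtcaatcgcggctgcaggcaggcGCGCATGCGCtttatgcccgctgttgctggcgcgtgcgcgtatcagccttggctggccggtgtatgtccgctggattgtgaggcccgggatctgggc

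ATP5MK, the member with the lowest difference, holds ETS matches only, of which a pair overlaps on opposite strands. SDHAF4 and COX7B, the members whose groups did not overlap, hold 0 matches to any of the letters. Of the 31 member promoters 14 hold any of the letters, so a promoter with none is common among them. These 3 promoters were picked by the differences of their genes, and a link between matches and differences was not tested.
ATP5MK promoter, GRCh38.p14 chr10:103396426-103396725, minus strand: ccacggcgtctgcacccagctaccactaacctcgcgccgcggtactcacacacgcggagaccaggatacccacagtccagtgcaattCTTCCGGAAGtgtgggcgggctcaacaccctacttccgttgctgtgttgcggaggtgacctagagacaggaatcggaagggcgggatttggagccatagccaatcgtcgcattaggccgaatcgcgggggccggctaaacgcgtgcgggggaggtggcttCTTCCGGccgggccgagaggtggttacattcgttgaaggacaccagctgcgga
SDHAF4 promoter, GRCh38.p14 chr6:70566680-70566979, plus strand: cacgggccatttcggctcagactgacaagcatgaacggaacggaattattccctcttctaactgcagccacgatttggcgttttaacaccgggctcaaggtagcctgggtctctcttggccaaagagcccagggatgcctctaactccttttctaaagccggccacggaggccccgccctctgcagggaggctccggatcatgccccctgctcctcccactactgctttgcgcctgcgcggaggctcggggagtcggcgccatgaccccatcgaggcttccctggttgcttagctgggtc
COX7B promoter, GRCh38.p14 chrX:77899218-77899517, plus strand: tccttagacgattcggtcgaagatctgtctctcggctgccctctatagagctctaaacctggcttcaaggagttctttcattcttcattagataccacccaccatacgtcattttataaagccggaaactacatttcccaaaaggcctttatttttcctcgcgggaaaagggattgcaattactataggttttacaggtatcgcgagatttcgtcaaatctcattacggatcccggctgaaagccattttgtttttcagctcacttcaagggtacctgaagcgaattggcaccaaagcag

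The 5 members with the NRF1 letters had a median log2 difference of 0.11, and the 26 without them one of 0.043. For the ETS letters the median was -0.0046 with them (10 members) and 0.062 without them (21 members). For the YY1 letters it was 0.093 with them (3 members) and 0.043 without them (28 members). The NRF1 median is the value of COX5B, which was -0.20 without siATF4 replicate 1. COX6A1, whose brighter feature may read a copy, is among those 5 members. These gaps were not tested.

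Complex III takes electrons from ubiquinol and passes them to cytochrome c. Of its 6 measured members 4 were higher and 2 lower with siATF4, with a median difference of 0.12, and 0 were called. The mean over these 6 was 7.76, 7.51 and 7.56 on siATF4 replicates 1, 2 and 3, and 7.62, 7.42 and 7.52 on siCTRL replicates 1, 2 and 3. Replicate 1 was the highest array of each group. Without siATF4 replicate 1 alone the median difference was -0.0019, while the medians between same-numbered arrays were 0.20, 0.078 and 0.076, all above zero.

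UQCRC1 encodes a core protein of the matrix arm of complex III. Its level was 7.52, 7.22 and 7.68 with siATF4, against 7.24, 7.14 and 7.50 with siCTRL. The groups overlapped, although each siATF4 array was above the siCTRL array of its own number, by 0.28, 0.079 and 0.18, and the difference was 0.18 (SE 0.16). Its partner core protein UQCRC2 had 9.97, 9.83 and 9.55 with siATF4 and 9.86, 9.75 and 9.46 with siCTRL. Here too the same-numbered arrays differed one way, by 0.11, 0.083 and 0.082, while the arrays of one group spread over a wider range than that, and the difference was 0.093 (SE 0.16).

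UQCRB, a small subunit close to the ubiquinone site, had 6.14, 5.49 and 5.34 with siATF4 and 5.68, 5.31 and 5.27 with siCTRL. Its highest array was siATF4 replicate 1, and the difference of 0.24 (SE 0.23) was -0.0025 without that array. CYC1, the cytochrome c1 subunit that carries a heme, had 8.75, 8.37 and 8.18 with siATF4 and 8.37, 8.29 and 8.19 with siCTRL. It showed the same pattern, with a difference of 0.15 (SE 0.16) over all arrays and of -0.0085 without siATF4 replicate 1.

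UQCRH, the hinge protein between cytochrome c1 and cytochrome c, had 6.02, 6.01 and 6.32 with siATF4 and 6.21, 5.98 and 6.25 with siCTRL. UQCRHL, its intronless copy, had 8.18, 8.13 and 8.29 with siATF4 and 8.34, 8.07 and 8.46 with siCTRL. The differences were -0.029 (SE 0.14) for UQCRH and -0.090 (SE 0.13) for UQCRHL. Transcripts of a gene and a near-identical copy may bind the same probes, so both are uncertain as to which gene they measure.

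**Figure D3:**
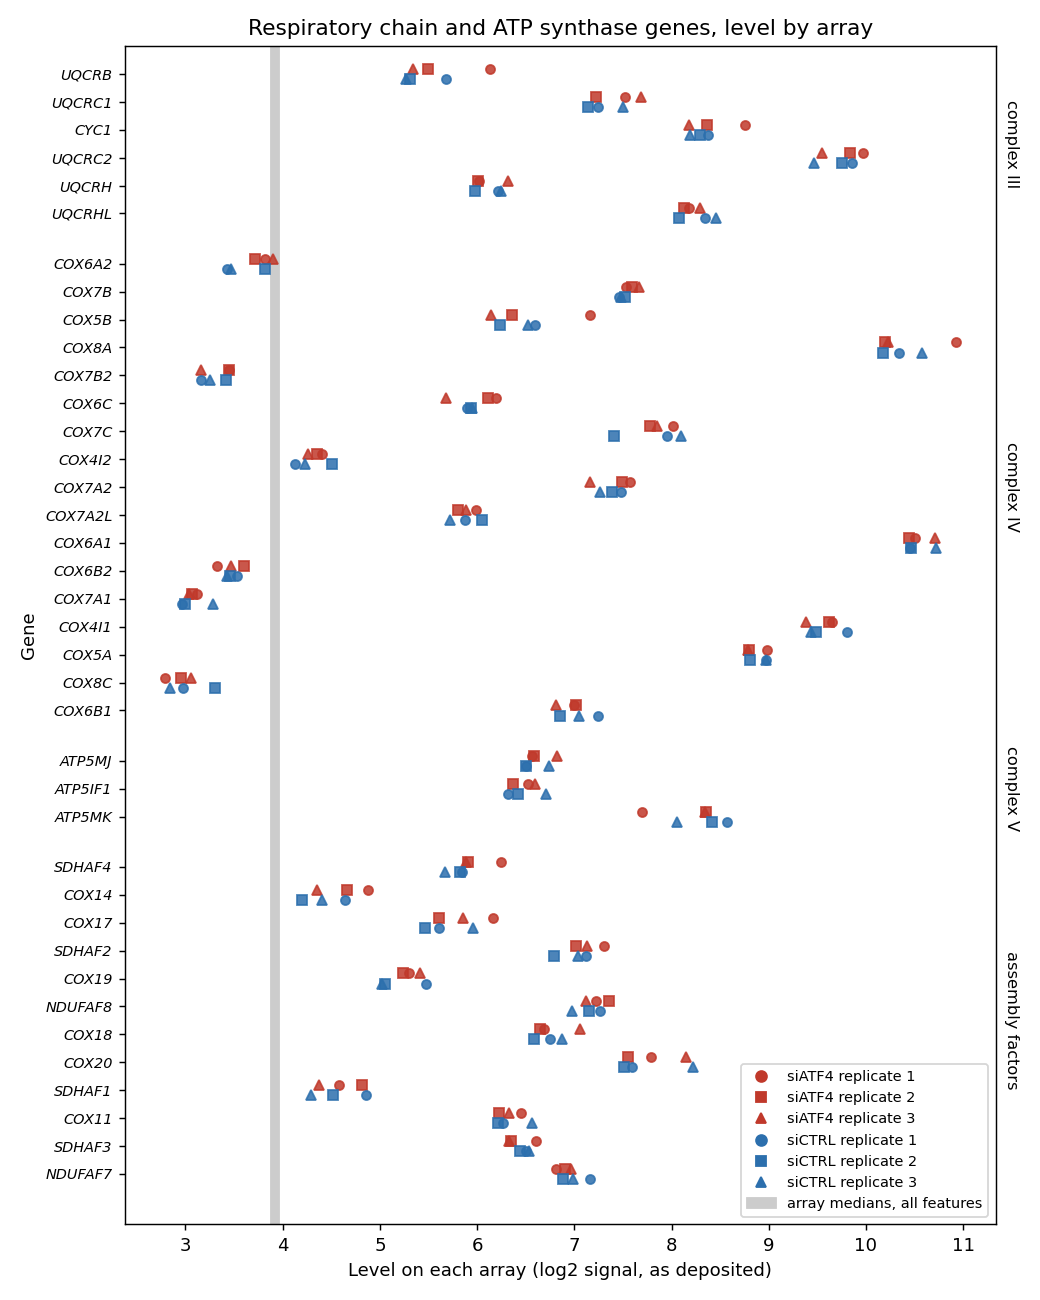
Log2 level (horizontal axis, as deposited) of the 38 genes (vertical axis, by complex) on each array, with siATF4 in red above siCTRL in blue for each gene and the replicate number given by the marker. Grey marks the range of array medians over all features, 3.88 to 3.96. The groups overlap for 36 of 38 genes, and 5 cytochrome c oxidase isoforms have points left of or in the grey band.

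Complex IV is the terminal oxidase, whose nuclear subunits surround a mitochondrially encoded catalytic core. Of 17 measured members 11 were higher and 6 lower with siATF4, the median difference was 0.029, and 0 were called. Their mean was 6.50, 6.37 and 6.31 on siATF4 replicates 1, 2 and 3, and 6.37, 6.34 and 6.37 on siCTRL replicates 1, 2 and 3. The siATF4 arrays lay on both sides of the siCTRL arrays, and without siATF4 replicate 1 the median difference was -0.031.

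COX4I1, the ubiquitous form of the largest nuclear subunit, had 9.65, 9.62 and 9.39 with siATF4 and 9.80, 9.49 and 9.43 with siCTRL. The difference was -0.017 (SE 0.14), with a 95% interval from -0.36 to 0.32. COX5A, on the matrix side of the enzyme, had 8.98, 8.80 and 8.79 with siATF4 and 8.97, 8.81 and 8.97 with siCTRL. In COX4I1 and COX5A alike the arrays of both groups mixed, and COX5A differed by -0.059 (SE 0.11).

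COX5B, a zinc-binding subunit whose promoter is printed above, had 7.16, 6.36 and 6.14 with siATF4 and 6.59, 6.24 and 6.53 with siCTRL. The siATF4 arrays reached both above and below all siCTRL arrays. The difference was 0.11 (SE 0.27) over all arrays, -0.20 without siATF4 replicate 1 and 0.31 without siATF4 replicate 3. COX8A, the ubiquitous form of the smallest subunit, had 10.93, 10.19 and 10.23 with siATF4 and 10.34, 10.17 and 10.58 with siCTRL. It too was highest on siATF4 replicate 1, and its difference of 0.086 (SE 0.22) was -0.15 without that array.

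COX7B, a small membrane subunit, was the complex IV member whose groups did not overlap. It had 7.53, 7.59 and 7.66 with siATF4 and 7.46, 7.52 and 7.48 with siCTRL, so that the lowest siATF4 array lay just above the highest siCTRL array. The difference was 0.11 (SE 0.097). Its limma p was 0.308 before adjustment, and an exact two-sided permutation test gave 0.1, which is the least that so few arrays allow. Over all members the groups did not overlap for 2 with siATF4 above siCTRL and for 0 with siATF4 below, where 3.3% and 2.59% of all genes did so.

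Among other ubiquitous subunits COX6C, COX7C and COX7A2 were higher by mean and COX6B1 was lower, while COX6A1 is described below. COX6C had 6.19, 6.12 and 5.68 with siATF4 and 5.89, 5.94 and 5.95 with siCTRL, a difference of 0.066 (SE 0.15). COX7C had 8.01, 7.78 and 7.85 with siATF4 and 7.95, 7.41 and 8.10 with siCTRL, a difference of 0.062 (SE 0.19). In each a single array (siATF4 replicate 3 for COX6C, siCTRL replicate 2 for COX7C) lay below the others. COX7A2 was at 0.029 (SE 0.14), and COX6B1, which faces the intermembrane space, at -0.11 (SE 0.14), the lowest of the 17.

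COX6A1 had 2 named features, and the brighter one stood for the gene. It had 10.51, 10.45 and 10.71 with siATF4 and 10.45, 10.46 and 10.72 with siCTRL, a difference of 0.0080 (SE 0.13). The second feature had 4.27, 3.95 and 4.35 with siATF4 and 4.31, 3.70 and 4.41 with siCTRL, a difference of 0.049. In the array's numbering the brighter feature stands among features of chromosome 6 genes (10 of its 10 named neighbours), while COX6A1 lies on chromosome 12, as do all 10 named neighbours of the second feature. Every feature of the other members stood among 10 neighbours of its own gene's chromosome. Whether the brighter feature reads COX6A1 itself or a copy of it was not tested.

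COX7A2L encodes SCAF1, which links complexes III and IV into supercomplexes and has been tied to the PERK and ATF4 branch of the stress response. It had 5.99, 5.80 and 5.89 with siATF4 and 5.88, 6.06 and 5.72 with siCTRL. The arrays mixed, the difference was 0.0088 (SE 0.13) and its 95% interval ran from -0.29 to 0.31.

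Several subunits have isoforms restricted to some tissues, and most of these were dim here. COX6A2 and COX7A1, the heart and skeletal muscle forms, and COX6B2, COX7B2 and COX8C, known from testis, were the 5 members that did not lie above the array median of all features on every array. COX7A1, COX6B2, COX7B2 and COX8C lay below that median on all 6 arrays, and COX6A2 lay above it on 1. COX4I2, the form known from lung, had 4.41, 4.35 and 4.26 with siATF4 and 4.13, 4.50 and 4.23 with siCTRL, above the median on every array, with a difference of 0.053 (SE 0.13). Signal over background was not analysed here, so a dim level is a position among features and not an absence of the transcript.

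COX6A2 had the highest difference of the 38. It had 3.82, 3.72 and 3.90 with siATF4 and 3.43, 3.82 and 3.47 with siCTRL, where siCTRL replicate 2 lay inside the siATF4 range. The difference was 0.24 (SE 0.14), with an unadjusted limma p of 0.132. Without siCTRL replicate 2 it was 0.37, and COX6A2 was then the 1 member with an unadjusted p below 0.05. Leaving out the highest siCTRL array was bound to raise this difference, and the share of all genes at that setting is not given here. The other dim isoforms ran from -0.10 (SE 0.15) for COX8C to 0.074 (SE 0.13) for COX7B2, with COX7A1 at -0.010 (SE 0.12) and COX6B2 at -0.0042 (SE 0.11).

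ATP synthase was represented by 3 genes outside its catalytic head, with a median difference of 0.011 and 0 called. ATP5MK (DAPIT), a membrane subunit that helps hold synthase dimers together, had 7.69, 8.36 and 8.34 with siATF4 and 8.57, 8.42 and 8.06 with siCTRL. One array, siATF4 replicate 1, lay below the other 5, and the same-numbered differences were -0.88, -0.059 and 0.28. The difference of the means was -0.22 (SE 0.22), the lowest of the 38, and 3.7e-05 without siATF4 replicate 1.

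ATP5MJ, another small membrane subunit, had 6.56, 6.58 and 6.82 with siATF4 and 6.50, 6.50 and 6.74 with siCTRL. Replicate 3 was the highest array of each group, the same-numbered differences were 0.059, 0.079 and 0.075, and the difference of the means was 0.071 (SE 0.13). ATP5IF1, the inhibitor that stops the synthase from running backwards, had 6.52, 6.37 and 6.59 with siATF4 and 6.32, 6.42 and 6.71 with siCTRL. Its arrays mixed, with a difference of 0.011 (SE 0.14).

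Assembly factors were higher with siATF4 in 9 of 12 cases and lower in 3, with a median difference of 0.078, and 0 were called. Their mean was 6.34, 6.19 and 6.25 on siATF4 replicates 1, 2 and 3, and 6.26, 6.05 and 6.21 on siCTRL replicates 1, 2 and 3. In both groups replicate 1 was the highest and replicate 2 the lowest.

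Complex II carries a flavin bound to its catalytic subunit SDHA, and SDHAF4 binds the flavinylated subunit during assembly. SDHAF4 had 6.25, 5.91 and 5.89 with siATF4 and 5.85, 5.83 and 5.67 with siCTRL. The groups did not overlap, and siATF4 replicate 1 stood above the other arrays. The difference was 0.24 (SE 0.13), or 0.12 without siATF4 replicate 1, and the exact two-sided permutation p was again 0.1.

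SDHAF2, which helps attach the flavin, had 7.31, 7.02 and 7.13 with siATF4 and 7.12, 6.79 and 7.04 with siCTRL. Its groups overlapped, each siATF4 array was above its own number by 0.19, 0.23 and 0.093, and the difference was 0.17 (SE 0.14). SDHAF1 and SDHAF3, which serve the iron-sulfur subunit SDHB, were at 0.033 (SE 0.18) for SDHAF1 and -0.069 (SE 0.12) for SDHAF3.

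For complex IV the copper factors COX17 and COX19 were higher by mean with siATF4, while COX11 was lower by far less than its SE. COX17, the copper chaperone of the intermembrane space, had 6.16, 5.61 and 5.85 with siATF4 and 5.61, 5.47 and 5.96 with siCTRL. Its difference was 0.20 (SE 0.19), or 0.056 without siATF4 replicate 1. COX19, which works in copper delivery with COX11, was at 0.14 (SE 0.15), and COX11, which places copper in the catalytic core, at -0.0092 (SE 0.13).

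COX14, which acts on newly made COX1, had 4.88, 4.66 and 4.35 with siATF4 and 4.64, 4.20 and 4.41 with siCTRL, a difference of 0.21 (SE 0.18), or 0.089 without siATF4 replicate 1. COX18 and COX20, both needed for the maturation of COX2, were at 0.057 (SE 0.15) for COX18 and 0.053 (SE 0.24) for COX20. COX20 had 7.79, 7.55 and 8.15 with siATF4 and 7.60, 7.51 and 8.23 with siCTRL, so the replicate numbers stood further apart than the siRNAs.

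For complex I the measured factors were NDUFAF7 and NDUFAF8. NDUFAF7, a methyltransferase needed to assemble the complex, had 6.81, 6.91 and 6.97 with siATF4 and 7.16, 6.89 and 6.99 with siCTRL. The lowest array was siATF4 replicate 1 and the highest siCTRL replicate 1, and the difference was -0.12 (SE 0.12). NDUFAF8, the partner of another assembly factor, was at 0.10 (SE 0.12).

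The differences varied with the replicate number. Arrays of the same number gave a median member difference of 0.10 for number 1, 0.076 for number 2 and -0.011 for number 3, and over all genes the same medians were 0.0092, 0.017 and 0.024. In complex III the medians were 0.20, 0.078 and 0.076, and in the assembly factors 0.14, 0.11 and 0.030, of one sign in every number. In ATP synthase they were 0.059, -0.049 and 0.075. In complex IV the medians were 0.092, 0.071 and -0.098. For 7 members siATF4 was higher in every number (18.4%, beside 14.4% of all genes), namely UQCRB, UQCRC1, UQCRC2, COX7B, ATP5MJ, SDHAF2 and SDHAF4. For 0 members it was lower in every number (beside 9.2% of all genes). Of the 11915 protein-coding genes 1884 were higher and 1087 lower in every number. With the replicate number as a block in limma, 0 members were again called and 0 had an unadjusted p below 0.05, where 2.18% of all genes were higher and 0.934% lower at that level.

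**Figure D4:**
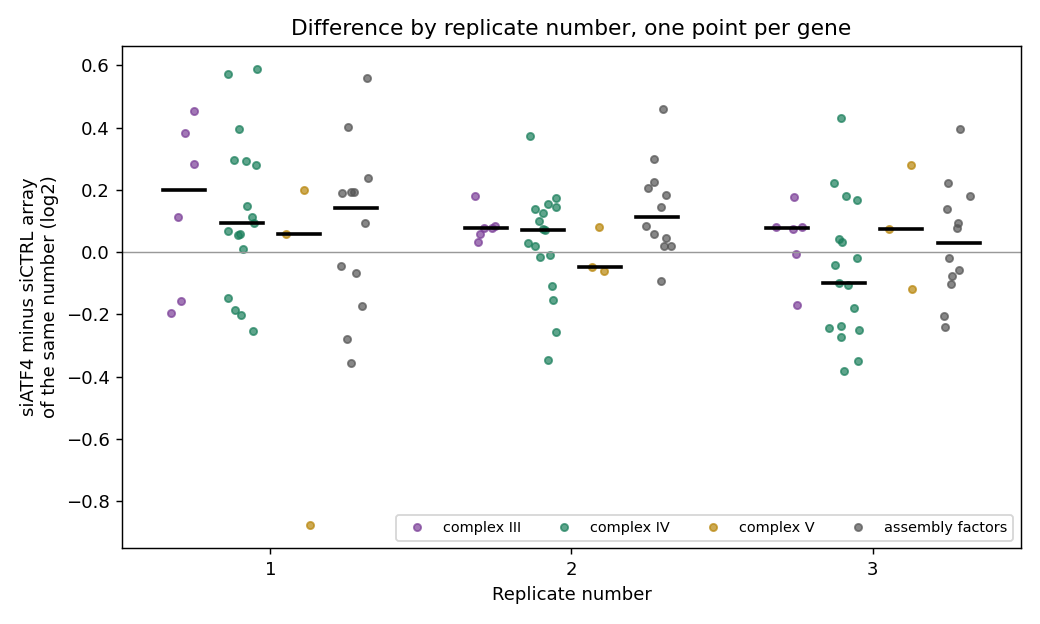
Difference between the siATF4 and the siCTRL array of the same replicate number (vertical axis, log2), one point per gene, by replicate number (horizontal axis) and complex (colour, 6, 17, 3 and 12 genes). Black bars are medians, which for complex IV were 0.092, 0.071 and -0.098. The lowest point at number 1 is ATP5MK at -0.88.

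The number of members with a higher mean depended on single arrays of both groups. For 14 of 38 members (36.8%) the highest of the 6 arrays was siATF4 replicate 1, beside 22.8% of all genes. Without that array the median member difference was -0.00059, with 19 members higher and 19 lower. Without siCTRL replicate 2 it was 0.021, with 20 members higher. Leaving out each of the other 4 arrays gave medians of 0.057 to 0.085, with 23 to 26 members higher. What sets these arrays apart was not tested.

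Other genes of the pathway were read from lists. Of 43 assembly factors named outside the rule 37 were measured, with 23 higher and 14 lower, a median difference of 0.051 and 0 called. The largest differences there were 0.42 (SE 0.22) for COA5, a complex IV factor, and 0.33 (SE 0.36) for UQCC2, a complex III factor, for which single arrays left out gave -0.016 to 0.66. SLIRP, which with LRPPRC protects mitochondrial mRNAs, was named after its values were seen, as the 1 gene of the pathway lists with an unadjusted limma p below 0.05. Of all genes 0.934% were higher and 0.531% lower at that level. SLIRP had 6.42, 6.73 and 6.68 with siATF4 and 7.04, 6.92 and 6.83 with siCTRL. The highest siATF4 array was under the lowest siCTRL array, as in 2.59% of all genes. The difference was -0.32 (SE 0.13), and SLIRP did not pass after adjustment over all genes.

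Of 24 genes of mitochondrial DNA upkeep and expression 14 were measured, 11 higher and 3 lower, with MTERF1 at 0.29 (SE 0.21) and FASTKD3 at -0.25 (SE 0.24). Nuclear regulators (7 of 12 measured, 5 higher) had a median of 0.12, with MYC at 0.17 (SE 0.18) and ESRRA at 0.12 (SE 0.24). Coenzyme Q synthesis and the dehydrogenases that feed it (10 of 19 measured, 7 higher) had a median of 0.075. SQOR, which oxidises sulfide, was at -0.37 (SE 0.26), and GPD2, the mitochondrial glycerol phosphate dehydrogenase, at 0.18 (SE 0.31). Of the carriers and channels 3 of 11 were measured, with the outer membrane channels VDAC1 at 0.076 (SE 0.10) and VDAC3 at 0.052 (SE 0.21). In these lists too 0 genes were called.

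Mitochondrial ribosomal proteins, which make the mitochondrially encoded subunits, numbered 73 and had a median difference of 0.020, with 43 higher and 30 lower. Cytosolic ribosomal proteins numbered 45 and had a median of -0.023, with 18 higher and 27 lower. In both sets 0 genes were called. The gaps to the members' median of 0.055 were not tested.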

How the data were processed

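Total RNA (100 ng) was labelled with a whole-transcript kit and hybridised to Affymetrix arrays, per the labels' protocols. The authors deposited 1 value for each of 53617 features in each of 6 samples, and the values were read as log2. The submitters' processing notes name Partek. Not given in the sources used here are how background was corrected, how arrays were normalized and which logarithm was used. The array's annotation table gave 16098 features a single symbol, and all of them matched RefSeq for GRCh38.p14. The brightest feature stood for a gene, which left 14884 genes, with no filter.

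The fit was limma 3.58.1 in R 4.3.3 on 3 siATF4 and 3 siCTRL arrays with no covariate, and was tested on simulated data. The simulation used independent noise and added differences larger than any member's, so it does not show whether differences of the members' size would be found. P-values were adjusted over all genes by Benjamini-Hochberg, with a threshold of 0.05. SE is the moderated standard error. Same-numbered replicates correlated in their deviations from the group means across genes (r = 0.20, 0.40 and 0.62), so same-numbered arrays were also compared. The SEs, intervals and p-values given for genes ignore that pairing, except where the block is named. The pairing by number comes from the data and not from the design, and siATF4 replicate 2 with siCTRL replicate 1 reached 0.48. The fit with the number as a block was an alternative, beside other normalizations, priors and weights, a filter on dim genes, the mean of features and each array left out.

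Members, lists, motifs and alternatives were chosen with earlier results of these data known. The genes to name were the 3 highest and 3 lowest differences of each complex (all where it had fewer than 7 members). Also named were the brightest and dimmest members and all tissue isoforms among the members. The planned isoform sets NDUFA4 with NDUFA4L2 and ATP5MC1 to ATP5MC3 had no member. Members without overlap between groups or with an unadjusted p below 0.05, and 2 genes of each other list, completed the rule. COX6C, COX7C, COX18, COX19, SDHAF1, SDHAF2, NDUFAF8 and SLIRP fall outside that rule and were added after their values were seen.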

Additional observations from a re-analysis of the deposited data

How the results depend on the processing

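With 3 arrays a group, no alternative called any gene or member, whether by quantile normalization, equal medians, the replicate block, another prior, array weights, the dim filter, the mean of features, all features tested or an adjusted threshold of 0.01. Over all genes the replicate block gave 464 with an unadjusted p below 0.05, against 218 without it, and changed no call. Quantile normalization left 1 member without overlap between groups, against 2. Leaving out each array in turn gave 0 to 1 members at an unadjusted p below 0.05. The shares of all genes at these settings are not given here, so these counts are not read as results about the members. The lowest and highest medians were then -0.0019 and 0.16 for complex III, -0.031 and 0.074 for complex IV, -0.071 and 0.12 for ATP synthase and 0.042 and 0.17 for assembly factors. Added after seeing the data, the median over members was 0.057 for those above the array median on every array and 0.060 without UQCRHL and COX6A1, and the second feature of COX6A1 gave 0.049. Signal over background is unknown here, so dim members are less certain.

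Differences of several members turned sign, those of UQCRB, CYC1 and ATP5MK among them. Quantile normalization put ATP5IF1 at -0.033, COX4I1 at 0.0011, COX6B2 at 0.0093 and COX7A2L at -0.021. Equal medians put COX11 at 0.0046, COX6B2 at 0.0096 and COX7A1 at 0.0036. Array weights put COX5B at -0.043, COX6B2 at 0.041, COX7A1 at 0.042, COX7A2L at -0.058 and COX8A at -0.017. With single arrays left out 23 members turned sign, and their extremes were -0.071 and 0.12 for ATP5IF1, -0.012 and 0.15 for ATP5MJ, -0.36 and 3.7e-05 for ATP5MK, -0.077 and 0.099 for COX11, -0.073 and 0.13 for COX18, -0.11 and 0.28 for COX20, -0.089 and 0.097 for COX4I1, -0.027 and 0.16 for COX4I2, -0.20 and 0.31 for COX5B, -0.068 and 0.097 for COX6A1, -0.073 and 0.066 for COX6B2, -0.032 and 0.22 for COX6C, -0.069 and 0.092 for COX7A1, -0.054 and 0.15 for COX7A2, -0.074 and 0.094 for COX7A2L, -0.14 and 0.20 for COX7C, -0.15 and 0.21 for COX8A, -0.20 and 0.028 for COX8C, -0.0085 and 0.28 for CYC1, -0.096 and 0.18 for SDHAF1, -0.0025 and 0.39 for UQCRB, -0.020 and 0.21 for UQCRC2, and -0.13 and 0.024 for UQCRH. The cause was not tested.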
